A study of Mus musculus with 42 samples.

Results

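Kidneys of chow-fed mice taken at zeitgeber time (ZT, hours after lights on) 25 were compared with kidneys of chow-fed mice taken at ZT 1, the same hour of the light cycle 24 h earlier. The comparison rests on 6 of the 42 samples, with 3 mice listed at ZT 25 and 3 at ZT 1. All mice were wild-type male C57BL/6 kept in 12 h of light a day, and were 6 weeks old when the feeding of 14 weeks began. Chow mice ate a standard diet, and the other mice used here ate a high-fat diet with 3% EpSA and were sampled at the same 7 times (ZT 1, 5, 9, 13, 17, 21 and 25). Since EpSA came with a high-fat diet, effects of fat and of EpSA cannot be told apart where the diets are compared.

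Expression was given as 1 value per gene, diet and time. The values are taken as FPKM (fragments per kilobase of transcript, scaled to the mapped fragments), a unit inferred from the values since no header names it. Each value is read as the authors' mean of the 3 mice and is called a pool here. No spread between mice could be computed, and a change in 1 mouse cannot be told apart from a change in all 3. The depth of the libraries is unknown. FPKM summed to 423799 in the ZT 25 pool and 402403 in the ZT 1 pool, with 29183 and 29027 genes above 0. Both pools held the segments of the kidney. The summed FPKM of 16 proximal tubule markers was 52686 at ZT 25 and 41719 at ZT 1, and that of 9 podocyte markers was 67.9 and 68.2. The adrenal steroid enzymes Cyp11b1 and Cyp11b2 were listed at 0 in both pools.

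A pair of pools from the same hour shows how far expression differs where a daily rhythm predicts no difference. The gene group that differed most here belongs to immune signalling. Interferons are secreted proteins that act through transcription factors, which bind DNA elements named GAS and ISRE. Their targets include GTPases that attack intracellular pathogens, antiviral enzymes and the machinery that presents peptides on MHC molecules. MHC class I is carried by nearly all cells, and MHC class II mainly by macrophages, dendritic cells and B cells, under the coactivator CIITA.

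Interferon and MHC genes stood far lower at ZT 25 than at ZT 1, and the higher genes were fewer and mostly low. A total of 13252 genes had a chow mean of at least 1 FPKM and were compared on log2(FPKM + 1), a scale that understates the differences of low genes. By a difference of at least 1 on that scale, 83 genes (0.626% of those tested) were lower at ZT 25 and 31 (0.234%) were higher, or 114 (0.86%) in both directions. The median difference over all genes was -0.04, and the median absolute difference was 0.12. At the edge of the threshold, Cd274 was just inside at -1.0026 and Tnfsf10 just outside at -0.9994, while Slc6a15 was inside at 1.00. Of the 83 lower genes, 44 belonged to the interferon and MHC lists, which held 59 of all genes tested. Another 6 belonged to the macrophage list, which held 16. The lists were chosen with earlier results of these data known, so these overlaps are descriptions. Of the 83, 69 (83.1%) were protein coding, close to the 85.5% of all genes tested, while 6 of the 31 higher genes (19.4%) were.

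No gene passed the test of the difference, and Hsd3b2 alone passed in a pair of the alternative fits described with it below. In limma with a 24 h cosine per diet, whose error is the spread of the 14 pools around the curves and not the spread between mice, 0 genes (0%) had an adjusted p under 0.05 (Benjamini-Hochberg). The lowest adjusted p was 0.167, and 843 genes (6.36%) had an unadjusted p under 0.05. The count of 0 says little about changes in a single pool. A change in only the ZT 25 pool or only the ZT 1 pool also moves the points away from the curve, so its t cannot exceed 5.28 and its p cannot go below 0.000462, however large the change. At least 123 genes would have to reach that p for any of them to pass. With a separate level for ZT 1 and ZT 25, a fit added after the data were seen that has no such bound, the count was also 0, with a lowest adjusted p of 0.327 and 898 genes at an unadjusted p under 0.05. The differences below are therefore descriptions of these pools.

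The interferon list was below 0 throughout. All 35 tested members were lower at ZT 25, 24 of them by at least 1, with a median difference of -1.17 beside -0.04 over all genes. The summed FPKM of its 36 measured genes was 176.5 at ZT 25 and 575.9 at ZT 1. Members were sorted into groups by role after their values were seen, so the order of the groups is a description. Immunity-related GTPases, a family that acts against intracellular pathogens, had the largest median difference of the groups in this list. All 7 were lower by at least 1, with a median of -2.35. Igtp had 12.0 FPKM at ZT 25 and 76.0 FPKM at ZT 1, a difference of -2.56 ± 1.07 (SE from limma, adjusted p = 0.776). In Iigp1 the pools held 3.88 FPKM at ZT 25 and 29.9 FPKM at ZT 1, in Tgtp1 1.97 and 17.7, and in Irgm2 7.07 and 40.0. Since the filter takes a mean over the 7 chow times, a gene high only at ZT 1 can pass it for that reason. Tgtp1 and Tgtp2, and Igtp and Irgm2, are close copies of each other, and how the authors divided reads among them is not known here.

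The other groups of interferon targets had smaller median differences, although single members such as Gbp6 (-2.36) did not. Members named from here on for their roles, beyond the naming rule, were chosen after their values were seen. Among 6 guanylate-binding proteins, a related family of defence GTPases, 5 were lower by at least 1 (median -1.40). Gbp6 had 1.32 FPKM at ZT 25 and 10.9 at ZT 1, and Gbp2 differed by -1.76. Of 15 antiviral effectors, 8 were lower by at least 1 (median -1.02). Among these, Bst2, which tethers budding virus to the cell, had 13.8 FPKM at ZT 25 and 45.3 at ZT 1, and Isg15, a ubiquitin-like modifier, had 3.74 and 13.6. Rsad2 differed least of the effectors, at -0.38. Mx1, too low to be tested, had 0.65 FPKM at ZT 25 and 1.36 at ZT 1. Of 5 transcription factors in the list, all were lower and 3 by at least 1 (median -1.09), with Irf9 differing least at -0.65. Irf7 had 3.29 FPKM at ZT 25 and 11.5 at ZT 1, and Irf1 had 5.50 and 12.9. The chemokine Cxcl10, which draws activated T cells, had 2.89 FPKM at ZT 25 and 7.74 at ZT 1. Cxcl9, the other member of the chemokine group, differed by -0.67.

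Promoters of 6 lower genes are shown, chosen because each holds a match to at least 1 motif, so that the elements can be read in place. Windows are the 250 bases before the start of the gene, from RefSeq for GRCm38.p6, written 5′ to 3′ in lower case, with matches in capitals. The motifs searched on both strands were ISRE (GAAANNGAAA), GAS (TTCNNNGAA) and the Y box (CTGATTGG) of MHC promoters. Which genome build the authors used is not known here.
Igtp, chr11:58199306-58199555, plus strand: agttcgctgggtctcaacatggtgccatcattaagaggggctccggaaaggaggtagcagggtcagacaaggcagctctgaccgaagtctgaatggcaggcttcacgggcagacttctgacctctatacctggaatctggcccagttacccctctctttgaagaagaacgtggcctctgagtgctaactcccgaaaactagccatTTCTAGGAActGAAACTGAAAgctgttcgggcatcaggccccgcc
Irgm2, chr11:58214727-58214976, plus strand: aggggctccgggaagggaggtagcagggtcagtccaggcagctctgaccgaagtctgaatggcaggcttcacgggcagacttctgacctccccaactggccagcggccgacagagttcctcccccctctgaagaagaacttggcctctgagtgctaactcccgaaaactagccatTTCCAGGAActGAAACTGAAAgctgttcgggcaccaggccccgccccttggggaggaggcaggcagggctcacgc
Tgtp1, chr11:48992247-48992496, minus strand: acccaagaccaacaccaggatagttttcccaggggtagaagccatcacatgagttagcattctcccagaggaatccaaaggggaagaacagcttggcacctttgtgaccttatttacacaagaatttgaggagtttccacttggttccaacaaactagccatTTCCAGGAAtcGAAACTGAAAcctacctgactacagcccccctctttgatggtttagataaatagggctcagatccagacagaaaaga
Gbp2, chr3:142620413-142620662, plus strand: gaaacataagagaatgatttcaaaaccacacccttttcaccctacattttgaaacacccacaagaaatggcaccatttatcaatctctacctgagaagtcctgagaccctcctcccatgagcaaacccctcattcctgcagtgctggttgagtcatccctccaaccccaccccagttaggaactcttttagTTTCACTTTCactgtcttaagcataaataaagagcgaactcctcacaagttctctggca
B2m, chr2:122147437-122147686, plus strand: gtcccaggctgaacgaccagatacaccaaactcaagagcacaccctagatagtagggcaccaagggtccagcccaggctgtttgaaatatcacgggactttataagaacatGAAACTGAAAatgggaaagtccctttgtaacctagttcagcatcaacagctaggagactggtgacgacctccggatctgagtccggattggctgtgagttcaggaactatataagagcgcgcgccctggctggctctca
H2-Aa, chr17:34287824-34288073, minus strand: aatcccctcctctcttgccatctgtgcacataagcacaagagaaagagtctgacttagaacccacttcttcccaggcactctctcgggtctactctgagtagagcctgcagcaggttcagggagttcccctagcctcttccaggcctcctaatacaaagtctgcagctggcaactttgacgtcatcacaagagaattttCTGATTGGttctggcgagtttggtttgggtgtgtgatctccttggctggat

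In Igtp, Irgm2 and Tgtp1 a GAS match ended 2 bases before an ISRE match, the ISRE beginning 34, 64 and 77 bases before the start. In Gbp2 the ISRE match lay on the other strand. B2m held an ISRE match, and H2-Aa a Y box and no ISRE. Of 26 interferon list genes with a RefSeq window of 300 bases (250 before the start and 50 after), 17 (65.4%) held an ISRE match. Of 51 lower genes with a window, 21 (41.2%) did, against 344 of 9298 genes tested (3.7%) and 3.44% of all 32851 windows. GAS matches were in 13 of the 51 lower genes (25.5%) and 8.3% of all windows. None of the 7 higher genes with a window held either motif. So few windows cannot set this apart from the 11.2% of genes tested with a window that held an ISRE or GAS match. Matches were not general among the lower genes. In the 250 bases before either of the 2 H2-K1 starts, none of the 3 motifs had an exact match. The 50 bases after those starts were not looked at singly. Of 5 MHC class II genes with a window of 300 bases, 0 held an ISRE match, while 2 of 5 held a Y box. A Y box was in 6.14% of genes tested with a window. With 5 windows, 0 ISRE matches cannot be told apart from the 3.7% of genes tested. The search was made after the values were seen, the lists were in part defined by such targets, and a match is not a measured binding site.

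MHC class I genes were lower along the whole path from peptide to cell surface. All 16 tested members of the list were below 0 and 12 were lower by at least 1, with a median of -1.28. B2m, the light chain of every class I molecule, had 350.3 FPKM at ZT 25 and 1254 FPKM at ZT 1. The heavy chain H2-K1 had 83.7 FPKM at ZT 25 and 309.1 at ZT 1, and H2-D1 had 93.0 and 239.7. The heavy chain H2-T22 differed least, at -0.38, and these heavy chains are similar enough that reads may be shared. Psmb8, a catalytic subunit of the immunoproteasome that cuts proteins into peptides, had 4.33 FPKM at ZT 25 and 19.4 at ZT 1. Tap1, which carries peptides into the endoplasmic reticulum, had 2.47 and 8.62. H2-Q6 and H2-Q7, too low to be tested, had 0.52 and 0.72 FPKM at ZT 25, against 0.74 and 1.25 FPKM at ZT 1. Summed over 18 measured genes, the list reached 688.6 FPKM at ZT 25 and 2123 FPKM at ZT 1.

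MHC class II genes had the largest median difference of any list. All 8 members were lower by at least 1, with a median of -2.09 and a range from -2.86 to -1.17. Cd74, the invariant chain that guides class II molecules to the endosome, had 115.6 FPKM at ZT 25 and 603.8 at ZT 1. The beta chain H2-Ab1 had 30.1 FPKM at ZT 25 and 151.2 at ZT 1, and the alpha chain H2-Aa had 29.6 and 98.4. H2-DMb2, a chain of the peptide exchange factor H2-DM, had 1.04 FPKM at ZT 25 and 13.8 at ZT 1. Ciita itself was low, with 0.63 FPKM at ZT 25 and 2.66 at ZT 1. The microRNA gene Mir5107, at 0.49 and 6.77 FPKM, lies inside Cd74, so its reads cannot be told apart from those of its host. Of the 83 lower genes, 16 (19.3%) lie between the outermost H2 genes of chromosome 17, where 100 of the genes tested (0.755%) lie. Pigr, the receptor that carries IgA across epithelia and is no member of these lists, had 43.2 FPKM at ZT 25 and 203.1 at ZT 1.

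**Figure D1:**
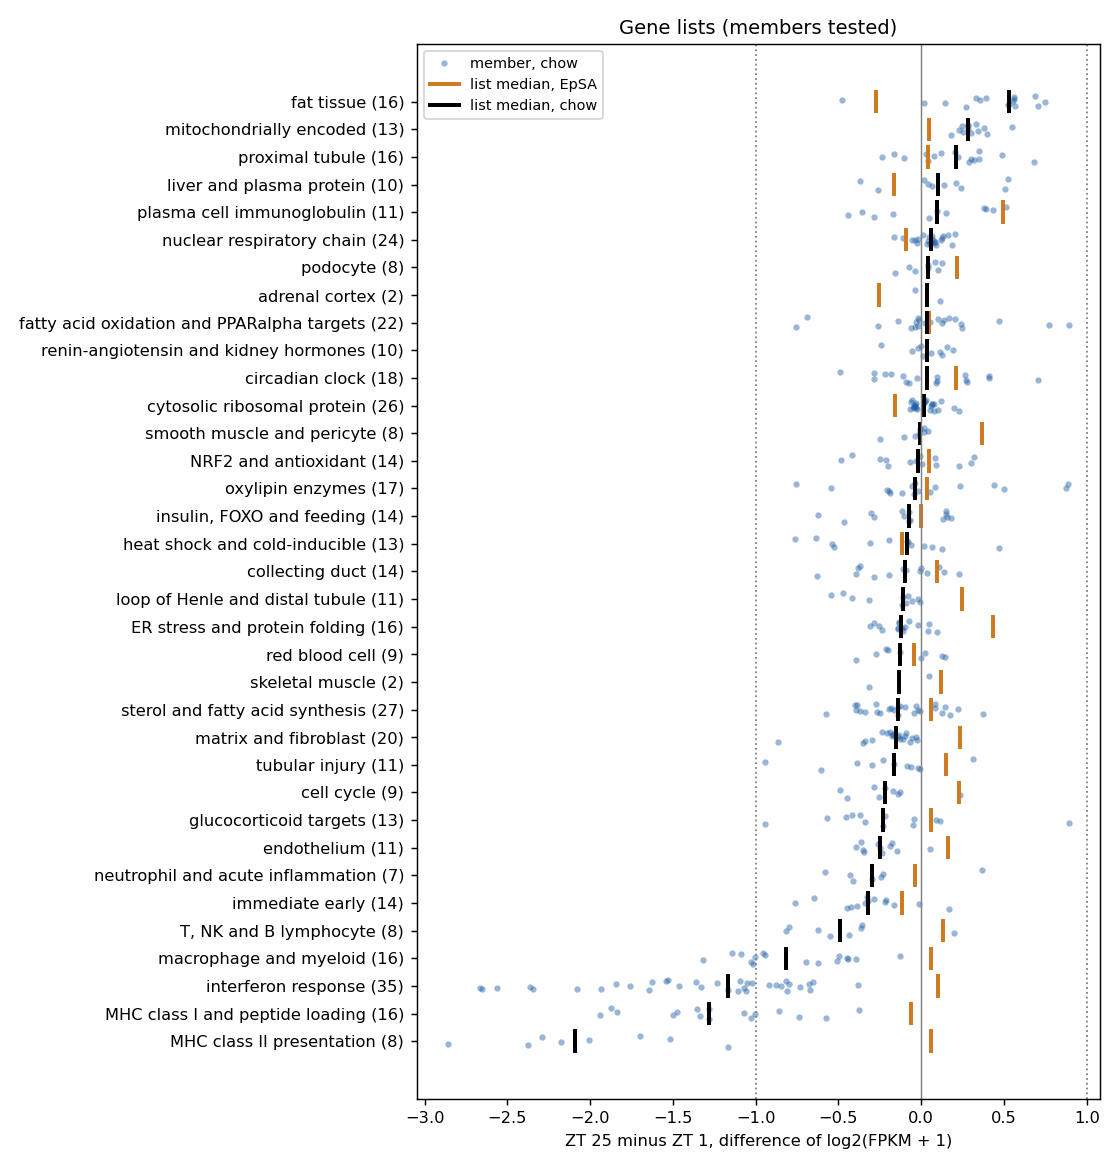
Each blue point is a tested member of 1 of the 35 gene lists, placed by its difference of log2(FPKM + 1) at ZT 25 minus ZT 1 in chow. Black bars are list medians in chow and orange bars are the medians of the same difference in EpSA. The MHC class II, MHC class I and interferon lists have chow medians of -2.09, -1.28 and -1.17, and EpSA medians of 0.06, -0.06 and 0.10.

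Markers of macrophages and most lymphocyte genes were also lower at ZT 25, while plasma cell genes were not. In bulk tissue, fewer cells of a type and less RNA per cell cannot be told apart. All 16 tested macrophage and myeloid markers were below 0, 6 of them by at least 1, with a median of -0.82. After scaling each pool to a common median all 16 stayed below 0, but 3 were lower by at least 1. The summed FPKM of this list was 143.7 at ZT 25 and 284.7 at ZT 1 over 18 measured genes, none at 0. The cathepsin Ctss had 14.6 FPKM at ZT 25 and 38.0 at ZT 1, and the complement chain C1qb had 18.7 and 42.6. Adgre1, which encodes F4/80, had 1.37 FPKM at ZT 25 and 3.76 at ZT 1. Csf1r, the receptor that macrophages need to survive, differed by -0.13, with 9.65 FPKM at ZT 25 and 10.6 at ZT 1. Ms4a7 and Itgam, too low to be tested, had 0.45 and 0.32 FPKM at ZT 25, against 1.45 and 0.30 FPKM at ZT 1. Of 8 tested lymphocyte genes, 7 were below 0 and none by 1, with a median of -0.49. Summed FPKM of the 21 measured lymphocyte genes was 22.6 at ZT 25 and 36.9 at ZT 1. Of 11 plasma cell immunoglobulin genes, 7 were above 0 (median 0.09), and their summed FPKM was 293.6 at ZT 25 and 234.3 at ZT 1. Of 7 tested neutrophil and acute inflammation genes, 6 were below 0 (median -0.30). The part of these cells in the interferon and MHC differences was not tested.

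Over the 7 chow times, Igtp and B2m each had a pair of high pools, which not every immune gene shared. Igtp began at 76.0 FPKM (ZT 1), stood at 18.0 (ZT 5) and 21.4 (ZT 9), reached 78.1 (ZT 13), and then read 10.6 (ZT 17), 8.65 (ZT 21) and 12.0 (ZT 25). In Igtp the pools at ZT 1 and ZT 13 were thus high, those at ZT 5 and ZT 9 lower, and those from ZT 17 on lowest. B2m was likewise high at ZT 1 and ZT 13, reading 1254 FPKM (ZT 1), 703.1 (ZT 5), 766.5 (ZT 9), 1223 (ZT 13), 365.2 (ZT 17), 430.8 (ZT 21) and 350.3 (ZT 25). Irf7 was no higher at ZT 13 than at ZT 9, reading 11.5 FPKM (ZT 1), 9.07 (ZT 5), 9.91 (ZT 9), 8.99 (ZT 13), 6.36 (ZT 17), 2.69 (ZT 21) and 3.29 (ZT 25). Of the 83 lower genes, 51 (61.4%) were highest of the 7 times at ZT 1 and 24 (28.9%) at ZT 13, against 19.4% and 9.98% of all genes tested. Choosing genes that are lower at ZT 25 than at ZT 1 favours a maximum at ZT 1. Of 16 macrophage markers, 12 were highest at ZT 1 and 0 at ZT 13. C1qb read 42.6 FPKM (ZT 1), 37.1 (ZT 5), 25.4 (ZT 9), 28.0 (ZT 13) and between 15.0 and 18.7 from ZT 17 on.

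**Figure D2:**
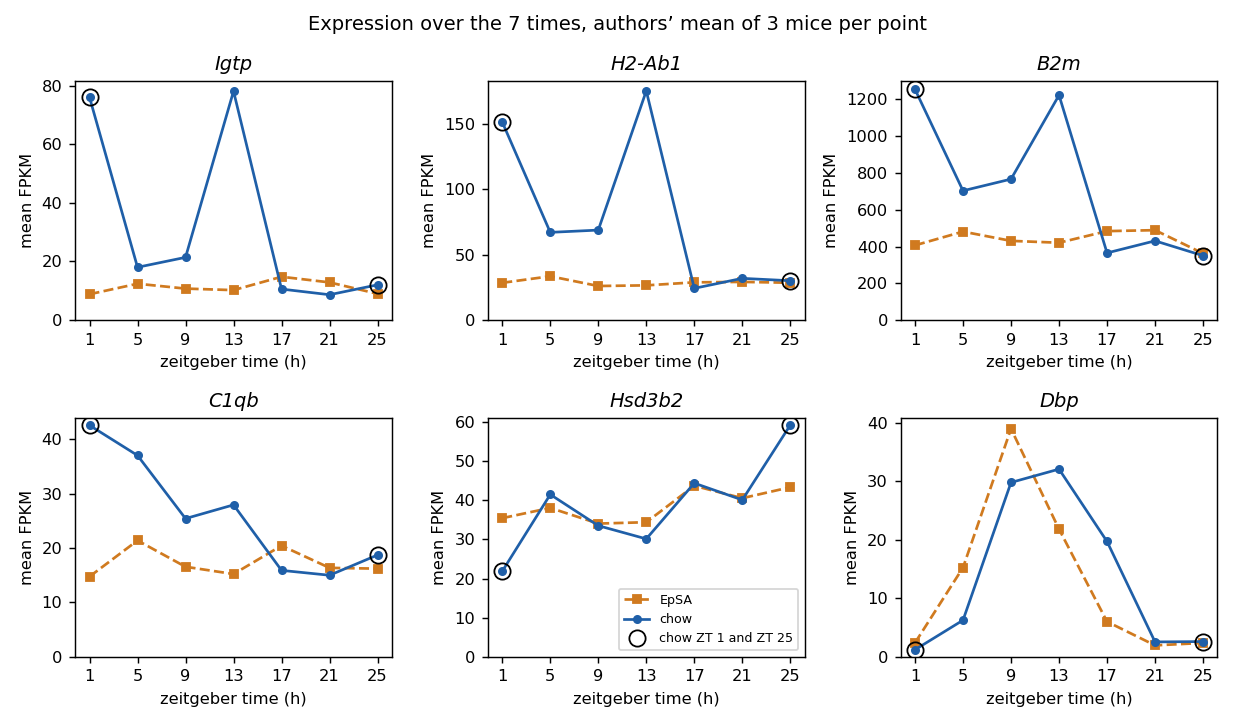
Mean FPKM (vertical axis, from 0) over zeitgeber time in hours for 6 genes, with EpSA as orange squares, chow as blue circles, and the chow pools at ZT 1 and ZT 25 ringed. Igtp, H2-Ab1 and B2m are high in chow at ZT 1 and ZT 13 and near the EpSA level from ZT 17 on, while Dbp is low at both ringed points.

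A pair of chow pools that shares neither sample, ZT 17 and ZT 13, was looked at after the pattern had been seen. At ZT 17, 64 genes (0.483%) were lower than at ZT 13 by at least 1, and 42 of them were among the 83 genes lower at ZT 25 than at ZT 1. That is 65.6% of the ZT 17 list and 50.6% of the ZT 25 list. The MHC class II median was -2.02 for ZT 17 minus ZT 13, the class I median -1.17 and the interferon median -0.89, against -0.02 over all genes. The macrophage median was -0.55, and 0 of its 16 tested markers were lower by at least 1. Across the 13252 genes the differences of both pairs correlated with Pearson r = 0.317, where genes are not independent.

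**Figure D3:**
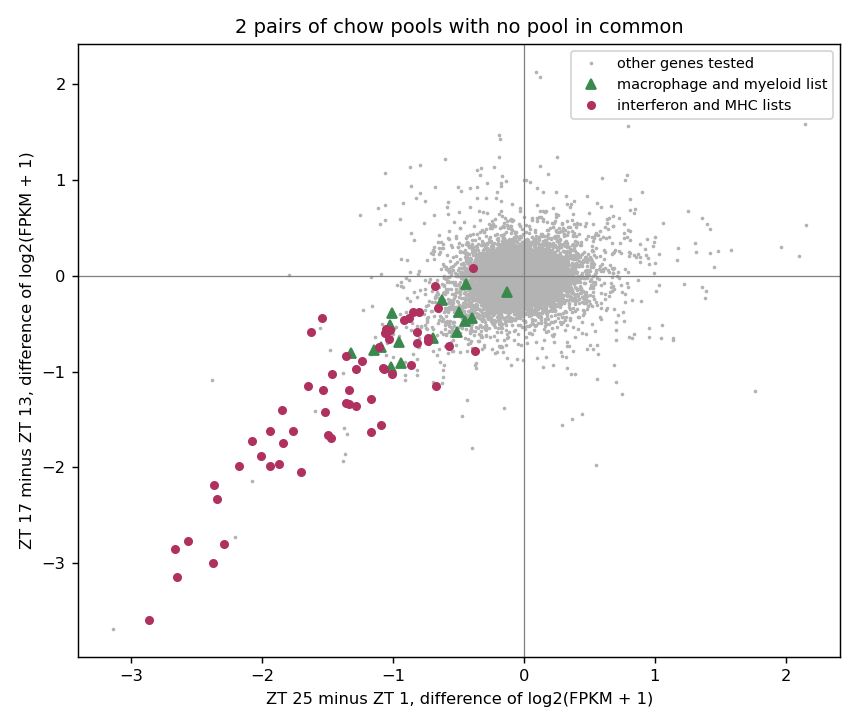
Each point is a gene tested, placed by its difference of log2(FPKM + 1) at ZT 25 minus ZT 1 (horizontal) and at ZT 17 minus ZT 13 (vertical) in chow. Many genes of the interferon and MHC lists (red) lie to the lower left. Genes of the macrophage list (green) lie less far down, none of them lower by at least 1 on the vertical axis. On both axes 42 genes are lower by at least 1, some of them outside these lists (grey).

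For the same hours in EpSA kidneys, the medians of the interferon, MHC and macrophage lists lay near 0. Some other lists lay further off, such as plasma cell genes at 0.49 and fat tissue genes at -0.27. In EpSA, 29 genes (0.219%) were lower by at least 1 at ZT 25 than at ZT 1 and 63 (0.475%) were higher. EpSA medians were 0.10 for the interferon list, -0.06 for MHC class I, 0.06 for MHC class II and 0.06 for macrophage markers, and 2 of the 83 genes were lower by at least 1. Igtp ranged over the 7 EpSA pools from 8.82 to 14.8 FPKM, with a median of 10.7, beside the 12.0 FPKM of chow at ZT 25 and the 76.0 FPKM of chow at ZT 1. The chow ZT 1 pool was above every EpSA pool in 77 of the 83 lower genes (92.8%), which were chosen for a high ZT 1, and in 23.6% of all genes tested. The chow ZT 25 pool lay within the EpSA pools in 72.3% of the 83 and in 72.9% of all genes, so the lower genes did not stand apart in this. The difference between the diets, EpSA minus chow, was tested in the same limma fit, and 0 genes (0%) had an adjusted p under 0.05, with 861 at an unadjusted p under 0.05 and a lowest adjusted p of 0.721. For a change in 1 chow pool alone, p cannot go below 0.00445 in that test. The lowest p-values among genes the naming rule allows were those of Mir5107, Ppard, Cry1, Scnn1a and Clec4a3. Cry1, a repressor of the clock, differed by 1.34 in EpSA and -0.11 in chow.

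Among the 31 higher genes, 10 (32.3%) were small RNA genes and 23 (74.2%) had a chow mean under 5 FPKM, against 1.14% and 46.4% of all genes tested. The protein-coding genes were Xlr3b, Hsd3b2, Clec2h, Srd5a2, Cyp26b1 and Slc6a15. Hsd3b2, of the family that converts steroid precursors, had 59.3 FPKM at ZT 25 and 21.9 at ZT 1, a difference of 1.40 ± 0.22 (SE from limma, adjusted p = 0.348). ZT 25 was its highest and ZT 1 its lowest chow pool. In both limma fits with a daily curve shared by the diets it was the 1 gene that passed, at adjusted p of 0.0129 and 0.0444. Genes of its family are similar enough to share reads, and Hsd3b3 had 11.2 FPKM at ZT 25 and 9.81 at ZT 1. Srd5a2, a steroid 5-alpha-reductase, had 9.31 FPKM at ZT 25 and 3.15 at ZT 1, and Clec2h, a lectin-like receptor ligand, had 17.7 and 6.27. Cyp26b1, which degrades retinoic acid, had 2.53 FPKM at ZT 25 and 0.48 at ZT 1. Xlr3b had 4.07 FPKM at ZT 25 and 0.14 at ZT 1, and it has near-identical copies. Slc6a15, an amino acid transporter, had 11.9 FPKM at ZT 25 and 5.43 at ZT 1. The other named higher genes were Igkv10-94, Trbd1, Rps15-ps2, Mir186 and Mir1198. Trbd1 was listed at 0 at ZT 1, and Mir186 lies inside Zranb2, from which its reads cannot be told apart.

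Clock genes, whose rhythm gives both pools the same phase, differed little relative to their daily swing. Of 18 tested, 9 were higher at ZT 25 and 9 lower, none by 1, with a median of 0.03. The difference took up a median of 14.0% of the range over the 7 times, against 36.8% over all genes tested, and under 25% in 16 of 18. A wide daily range lowers this share, so it does not show that clock genes differed less than other genes. Differences of Dbp (0.70), Arntl (-0.49), Nr1d2 (0.41) and Per3 (0.41) exceeded 0.34 in size, the 90th percentile over all genes tested. Those of the other clock genes did not. Nr1d1, the repressor REV-ERB alpha, had 4.37 FPKM at ZT 25 and 4.46 at ZT 1 within a chow range from 3.35 to 18.0. Dbp, an output activator, had 2.60 FPKM at ZT 25 and 1.21 at ZT 1, against 32.0 at ZT 13. Arntl, which encodes BMAL1, had 3.04 FPKM at ZT 25 and 4.68 at ZT 1, against 0.35 at ZT 13. Differences of the other repressors were -0.22 for Per1, 0.26 for Per2, 0.41 for Per3, -0.11 for Cry1 and 0.10 for Cry2. Those of the activators Clock and Npas2 were -0.28 and -0.18. Nr1d2 differed by 0.41, Nfil3 by 0.28, Tef by 0.09, Hlf by -0.09, Bhlhe40 by 0.09 and Ciart by -0.07. The exceptions to a share under 25% were Clock, at 40.7% of its range, and Rora, whose difference of -0.29 made up 98.0% of its small range. Bhlhe41 was too low to be tested.

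**Figure D4:**
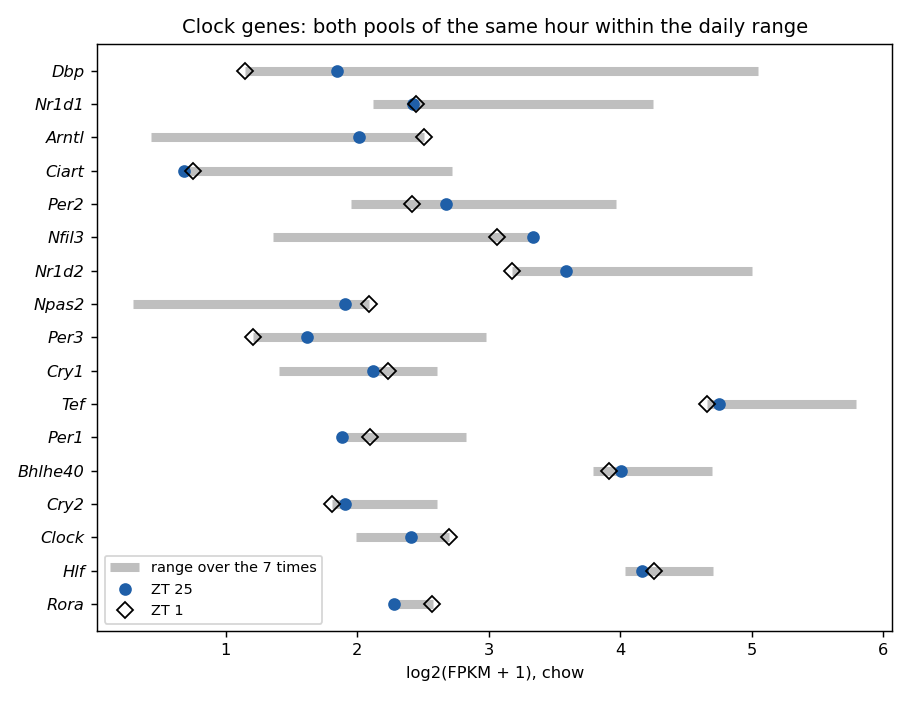
For each clock gene shown, the grey bar spans the lowest to highest log2(FPKM + 1) over the 7 chow times, the filled circle is ZT 25 and the open diamond ZT 1. The 2 points lie close together in most genes, with a median separation of 14.0% of the range over the 18 genes tested.

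Outside immunity, no list had a member that differed by 1. Over all genes tested, 8068 of 13252 (60.9%) were below 0, and 49.3% were after scaling each pool to a common median. Fat tissue genes leaned higher, with 15 of 16 above 0 and a median of 0.53. Their summed FPKM was 522.9 at ZT 25 and 386.6 at ZT 1, but ranged from 352.8 to 621.1 over the 7 chow pools. Adipoq, the hormone adiponectin, had 20.8 FPKM at ZT 25 and 12.6 at ZT 1, and Lep was the member below 0, at -0.48. Proximal tubule genes had a median of 0.21, and Acsm3 had 121.5 FPKM at ZT 25 against 75.3 FPKM at ZT 1. The 13 mitochondrially encoded genes were all above 0, with a median of 0.28, and 10 of 13 were under quantile normalization. Loop of Henle and distal tubule genes were all 11 below 0, with a median of -0.11, and 9 of 11 were after that scaling, with a median of -0.05. The salt cotransporter Slc12a1 of that segment had 157.6 FPKM at ZT 25 and 230.1 at ZT 1. Of 14 immediate early genes 13 were below 0 (median -0.32) and 12 after that scaling, with Jun at 6.53 FPKM at ZT 25 and 10.8 at ZT 1. All 20 matrix genes were below 0 (median -0.15), and 18 were after that scaling.

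Among lipid and stress genes, members pointed both ways. Pdk4, a brake on glucose oxidation, had 19.4 FPKM at ZT 25 and 9.98 at ZT 1. The arachidonic acid hydroxylase Cyp4a12a had 105.4 and 56.6, Cyp2j9 7.71 and 3.76, and Angptl4, an inhibitor of lipoprotein lipase, 15.5 and 8.63. Cyp4a14, a target of PPAR alpha, had 12.5 FPKM at ZT 25 and 21.8 at ZT 1, and Ppara itself had 5.33 and 9.22. The gluconeogenic enzyme Pck1 had 627.6 FPKM at ZT 25 and 968.5 at ZT 1. Cdkn1a, the cell cycle inhibitor p21, had 5.87 FPKM at ZT 25 and 12.2 at ZT 1, and the chaperone Hspa1b had 9.84 and 17.4. Medians of the fatty acid oxidation, oxylipin and heat shock lists were 0.04, -0.04 and -0.09.

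Against the other pairs of chow pools, ZT 25 and ZT 1 were not the closest. Their 114 genes at least 1 apart ranked 6 among 21 pairs, where 1 is the most. The most were 153 between ZT 21 and ZT 13, and the fewest were 55 between ZT 25 and ZT 5. Without the interferon, MHC and macrophage lists, left out after the pattern had been seen, 64 genes remained and the pair ranked 15. ZT 25 and ZT 5 had fewer genes apart on both counts, 46 without these lists. The median absolute difference over all genes tested gave another order. By it ZT 25 and ZT 5 (0.1207, rank 8) were slightly further apart than ZT 25 and ZT 1 (0.118, rank 10). The closest pair was then ZT 5 and ZT 1 (0.0837, rank 21).

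**Figure D5:**
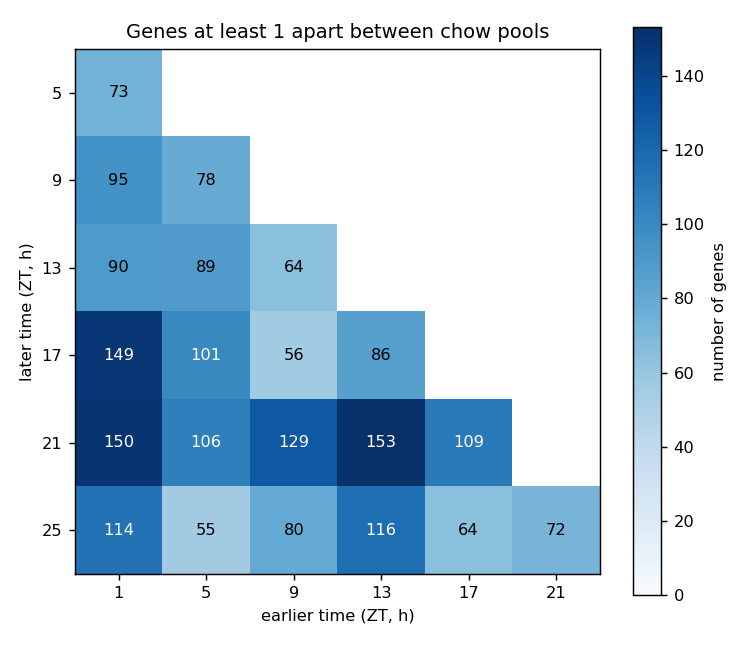
Genes that differ by at least 1 on log2(FPKM + 1), counted for each of the 21 pairs of chow pools, later time down the side and earlier time along the bottom, darker for more genes. ZT 25 and ZT 1 (bottom left) have 114, between the extremes of 55 and 153.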

How the data were processed

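Per the labels' protocols, total kidney RNA gave paired-end reads of 150 bases. The authors deposited 2 tables, 1 per diet, of values taken as FPKM, with 56691 genes and 7 times each. The headers do not name the unit, which is inferred from the values, and the last decimal of every value (0, 3 or 7) is that of a mean of 3 values. The aligner, counting tool, genome build and annotation are not given in the sources used here. P-values of rhythm in the same tables were not used.

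Genes with a chow mean of at least 1 FPKM were compared on log2(FPKM + 1). Since each time has 1 mean, differences of at least 1 are descriptions. limma 3.58.1 in R 4.3.3 was fitted to the 14 means with an intercept, a 24 h cosine and sine and a day term per diet (6 residual and 3.28 prior degrees of freedom), with Benjamini-Hochberg adjustment at 0.05. Other steps used Python 3.11.15 (pandas 2.3.3, scipy 1.17.1). The fit was tested on simulated data, in which the spread of noisy genes such as Igtp was capped below its fitted value. It called most of the larger opposite shifts at both hours, but not a shift in 1 pool. That led to the exact bound on p and to the added fit with a separate level for ZT 1 and ZT 25. That fit was chosen after the data were seen.

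The 35 gene lists and the members were chosen with earlier results of these data known. Named are the clock genes, the 10 highest and 10 lowest differences, up to 4 members per list that differ by at least 0.5, and the 5 lowest p of the difference between diets, passing over genes known only by model or clone number; genes named for their role were added after their values were seen. Some genes this rule selects are not reported here.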

Additional observations from a re-analysis of the deposited data

How the results depend on the processing

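The 83 lower and 31 higher genes depend on the scale used for low genes. With a pseudocount of 0.1 the counts were 148 lower and 88 higher, and with 0.5 they were 109 and 54. With a chow mean of at least 5 FPKM they were 49 and 8, and with no filter 100 and 58. A threshold of 0.5 gave 371 and 218, and one of 1.5 gave 30 and 6. Scaling each pool to a common median gave 72 and 37, and quantile normalization 70 and 37. After median scaling, 23 interferon, 10 MHC class I, 8 MHC class II and 3 macrophage genes were lower by at least 1. Under quantile normalization these list counts were 21, 9, 8 and 3. The interferon, MHC class I and MHC class II lists were the 3 with a median at least 1 from 0 under every pseudocount, filter and scaling tried.

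The limma count was 0 lower under every alternative and 0 higher under all but a pair. With 24 h and 12 h cosines shared by the diets, 1 gene was higher, Hsd3b2 (adjusted p = 0.0129), and with time of day as a shared factor it was again that 1 gene (adjusted p = 0.0444). The difference between the diets gave 0 under each. In every fit but the added one with a separate level for ZT 1 and ZT 25, a change in 1 pool alone has a bound on p, so these zeros say nothing about such changes. The adrenal list had no member left at a chow mean of 5.

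No paired analysis was possible because the tables hold 1 mean per diet and time and no replicate columns. Leaving out each mouse was not possible for the same reason. Depth is unknown, so counting error cannot be given.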
